A study of Mus musculus with 6 samples.

Results

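The 42 interferon-stimulated genes described here were taken by name from a table of 17572 protein-coding genes measured by RNA sequencing of mouse skin scars, and all 42 were in the table and passed the filter on low counts. All 6 libraries came from skin of wild-type C57BL/6 mice, 2 weeks after the operation. In hypertrophic scars (HS, n = 3) the edges of a wound on the upper back had been stitched under tension to the rib cage, and in normal scars (NS, n = 3) a wound on the lower back had been closed in place without tension. Since every HS wound was both stretched and on the upper back, tension and site cannot be told apart in any comparison. Nothing in the labels ties the libraries to different mice, and a p-value here measures library-to-library spread, part of which may be technical.

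Interferons are secreted alarm signals of the immune system. Type I interferons act through the receptor pair Ifnar1 and Ifnar2 and a complex with Stat2 and Irf9 that binds the interferon-stimulated response element (ISRE), while type II interferon, interferon gamma, acts through Ifngr1 and Ifngr2 and the gamma-activated site (GAS). The genes they induce encode sensors of foreign nucleic acid, enzymes that block viral replication, GTPases that attack vacuoles of intracellular microbes, and parts of the machinery that presents peptides on MHC class I; in skin, keratinocytes, fibroblasts, endothelium and leukocytes can all express them.

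Promoter sequences are shown for the 3 genes that passed the test (Irf1, Ddx58 and Gbp2) and for 2 classical type I targets (Ifit1 and Isg15). Each runs 5′ to 3′ on the gene's own strand, from 250 bases before the RefSeq start to 50 bases from it (start = 1, GRCm38.p6), with motif matches in capitals. The windows lie at chr11:53769764-53770063 (Irf1), chr4:40239776-40240075 (Ddx58), chr3:142620413-142620712 (Gbp2), chr19:34640639-34640938 (Ifit1) and chr4:156200769-156201068 (Isg15), with Ddx58 and Isg15 on the minus strand.
Irf1: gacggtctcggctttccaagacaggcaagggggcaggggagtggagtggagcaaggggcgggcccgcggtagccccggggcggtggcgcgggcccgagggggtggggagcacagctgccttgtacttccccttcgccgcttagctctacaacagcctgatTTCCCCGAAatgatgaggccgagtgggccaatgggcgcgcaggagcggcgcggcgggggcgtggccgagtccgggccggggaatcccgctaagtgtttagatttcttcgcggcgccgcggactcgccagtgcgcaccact
Ddx58: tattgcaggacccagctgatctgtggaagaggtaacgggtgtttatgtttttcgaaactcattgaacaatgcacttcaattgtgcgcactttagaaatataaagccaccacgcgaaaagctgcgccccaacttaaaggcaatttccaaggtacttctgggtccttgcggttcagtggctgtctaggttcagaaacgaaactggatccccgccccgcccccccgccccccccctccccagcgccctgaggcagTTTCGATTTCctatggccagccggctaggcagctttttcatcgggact
Gbp2: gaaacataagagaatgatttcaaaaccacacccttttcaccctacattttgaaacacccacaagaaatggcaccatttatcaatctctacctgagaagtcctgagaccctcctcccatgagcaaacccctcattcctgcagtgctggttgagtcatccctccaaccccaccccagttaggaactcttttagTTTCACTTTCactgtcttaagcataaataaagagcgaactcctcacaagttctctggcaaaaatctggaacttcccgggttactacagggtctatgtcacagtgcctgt
Ifit1: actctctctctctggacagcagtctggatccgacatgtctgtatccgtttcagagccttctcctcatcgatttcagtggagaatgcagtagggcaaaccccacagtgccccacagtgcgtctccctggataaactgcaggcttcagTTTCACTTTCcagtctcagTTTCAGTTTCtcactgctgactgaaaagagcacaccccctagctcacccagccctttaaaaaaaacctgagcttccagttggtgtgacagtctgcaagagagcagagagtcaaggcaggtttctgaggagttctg
Isg15: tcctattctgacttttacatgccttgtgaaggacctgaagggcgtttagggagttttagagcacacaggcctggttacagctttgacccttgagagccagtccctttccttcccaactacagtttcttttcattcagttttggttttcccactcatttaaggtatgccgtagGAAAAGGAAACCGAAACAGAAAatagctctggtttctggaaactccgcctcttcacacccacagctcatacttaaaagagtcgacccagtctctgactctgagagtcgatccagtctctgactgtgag

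The motifs searched were an ISRE core (GAAA, any 2 bases, GAAA) and the GAS TTCNNNGAA, on both strands, and matches of either could overlap. In Irf1 the capitals mark a GAS at -90 to -82. In Ddx58 they mark a reverse-strand ISRE core at 3 to 12, and in Gbp2 one at -59 to -50. Ifit1 held a pair of such cores, at -104 to -95 and -85 to -76. Isg15 held 3 forward-strand cores between -78 and -57, each overlapping the next. RefSeq windows were matched for 33 of the 42 genes, 39 windows in all. An ISRE core was in 19 of these 39 windows (48.7%), against 3.44% of 32851 windows of all genes, and a GAS in 10 (25.6%), against 8.30%. The 18 genes with an ISRE core had a median log2 fold change of 1.14 (HS over NS) and the 15 without one 0.79, given as a description only. A GAS was in 10 genes, of which 6 held both motifs. A match describes the letters of this window and not binding.

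The libraries of the HS group were not alike, and the interferon genes showed this more than most. For the middle 50% of tested genes the log2 difference from the NS mean, on the log2(CPM + 1) scale, lay between -0.25 and 0.35 in HS replicate 1, -0.17 and 0.16 in HS replicate 2, and -0.22 and 0.26 in HS replicate 3, so HS replicate 2 lay nearest to NS and HS replicate 1 farthest. CPM here are counts scaled to a common library total after TMM normalisation. The median coefficient of variation was 57.8% over the HS libraries for the 42 genes, against 13.6% for all 14513 tested genes, and 15.5% against 10.5% over the NS libraries. Skin markers were present throughout, with the basal keratinocyte keratin Krt5 at 1931 CPM or more and the collagen gene Col1a1 at 2504 CPM or more in each library.

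Interferon-stimulated genes were highest in HS replicate 1 without exception. All 42 had their highest value of the 6 libraries there, against 26.8% of all tested genes. In 40 of the 42 the HS order was replicate 1, 3, 2, as in 27.5% of all tested genes. Among the 919 genes called higher in HS that order held for 66.9%, so it was common to most genes that rose. Relative to the NS mean, the median gene stood 3.42-fold in HS replicate 1, 1.17-fold in HS replicate 2 and 1.56-fold in HS replicate 3. HS replicate 2 lay above all NS libraries for 21 of the 42 genes (as for 29.2% of all tested genes), within their range for 14 and below them for 7. For HS replicate 3 these counts were 36, 5 and 1. Shares of all genes for the other counts are not given here. All 42 fitted fold changes were above 0, with a median log2 fold change of 1.05, against -0.01 for all tested genes. In bulk tissue, fewer cells of a type and less RNA per cell cannot be told apart.

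**Figure D1:**
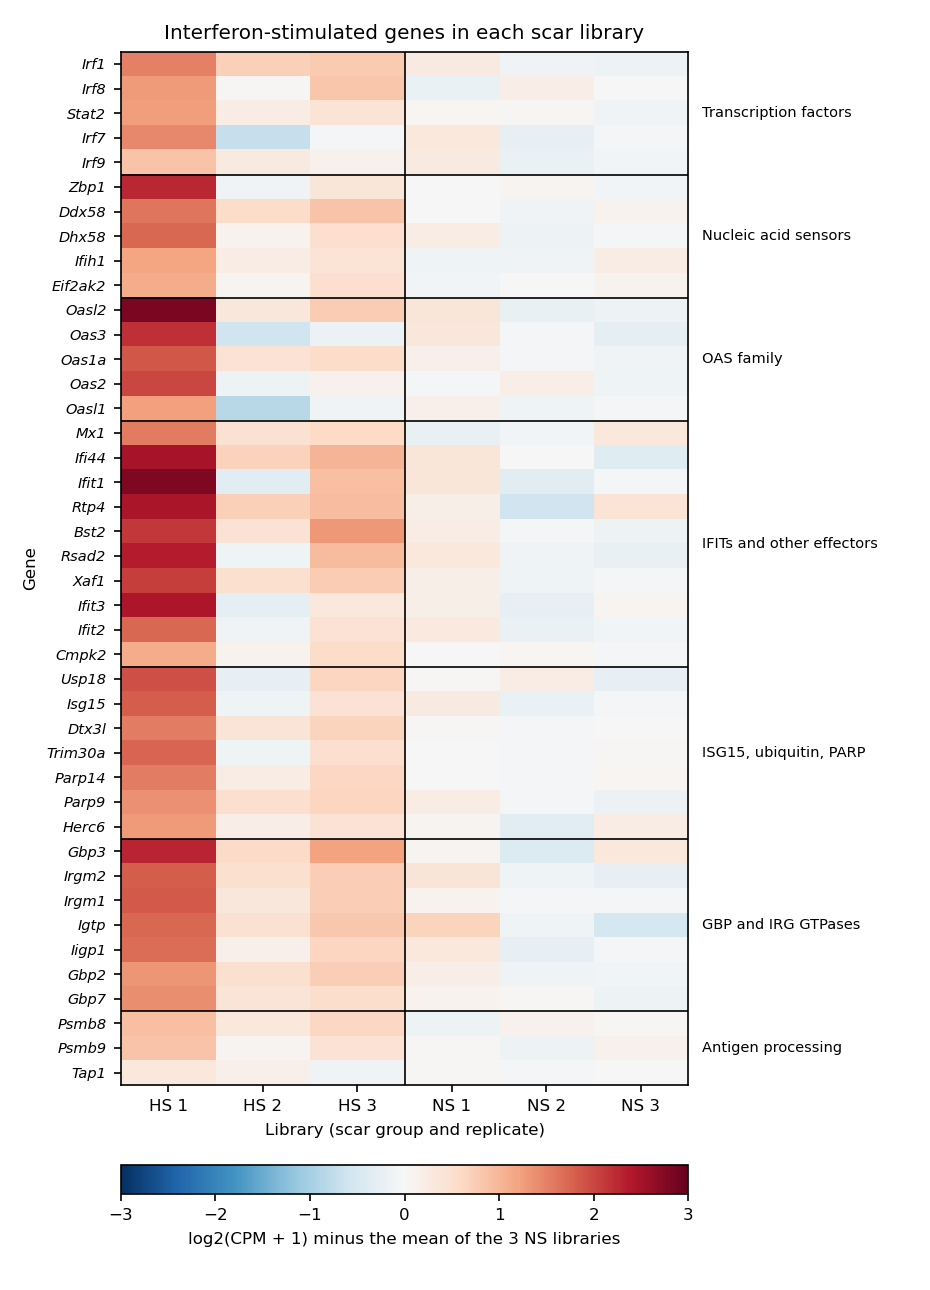
Difference of each of the 42 genes (rows, grouped by role) from the mean of the 3 NS libraries, as log2(CPM + 1), in each library (columns). The column of HS replicate 1 is red for all 42 genes, with a median difference of 1.70, while the medians of HS replicates 2 and 3 are 0.23 and 0.60.

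With all libraries, 3 of the 42 genes passed the test, Irf1, Ddx58 and Gbp2, and all 3 were higher in HS. That is 7.14% of the genes, near the 6.33% of all 14513 tested genes that were called higher (8.85% in either direction), so the count of calls is no result about these genes. Called, with no tool named or by edgeR with no other setting named, means an adjusted p below 0.05 in edgeR's test with all 6 libraries. No gene was called lower by edgeR's quasi-likelihood test (2.51% of all genes were), none was lower at an unadjusted p below 0.05, and DESeq2 and limma-voom called none lower. At an unadjusted p below 0.05, 27 were higher, against 15.2% of all genes. The 3 HS values lay above the 3 NS values for 19 of the 42 genes, against 17.2% of all tested genes. The calls turned on single libraries and on the tool. Without HS replicate 1, 6 genes were called (5.06% of all genes were called higher), and without HS replicate 2, 26 (13.5% of all genes). None was called without HS replicate 3 (0.832% of all genes), NS replicate 1 (0.446%), NS replicate 2 (0.135%) or NS replicate 3 (0.251%), though 25, 19, 13 and 16 then had an unadjusted p below 0.05. DESeq2 called 23 (11.1% of all genes) and limma-voom 0 (4.52% of all genes; 23 at an unadjusted p below 0.05).

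**Figure D2:**
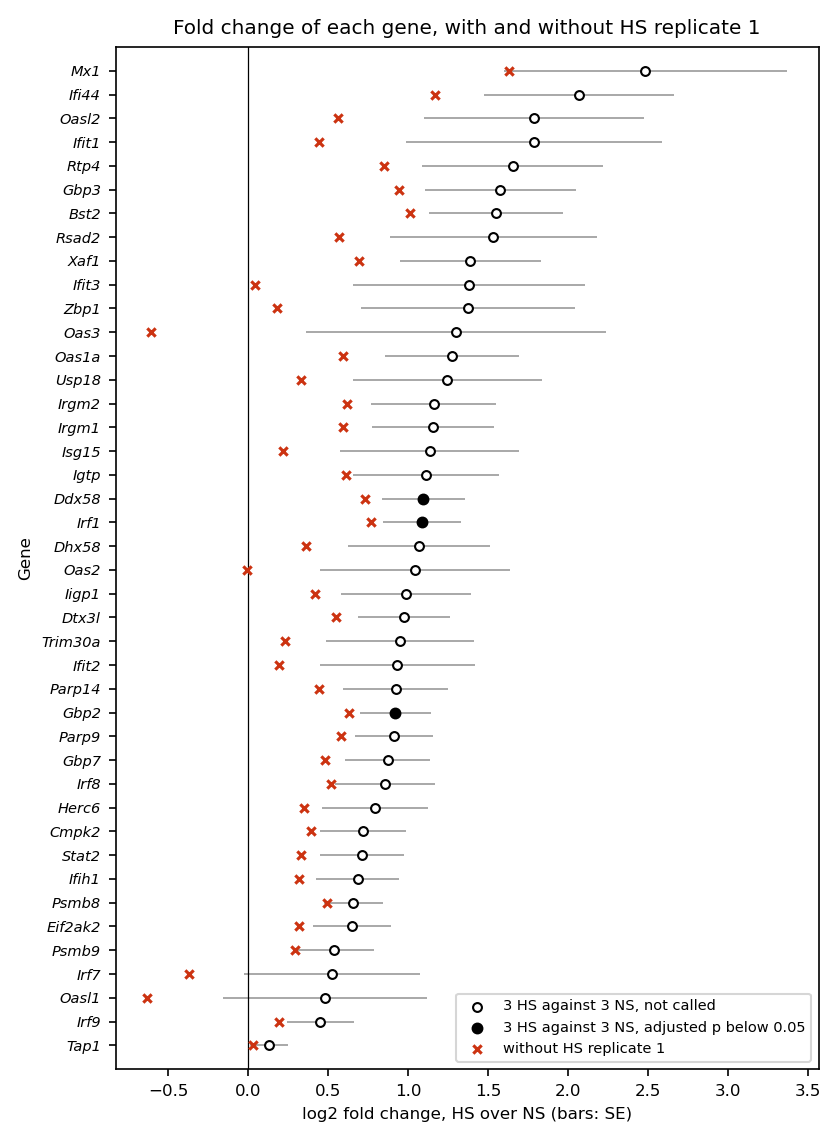
Fitted log2 fold change of HS over NS with its standard error for each of the 42 genes (circles, filled for the 3 called genes), and the value without HS replicate 1 (crosses). With all libraries the values run from 0.13 for Tap1 to 2.48 for Mx1, and without HS replicate 1 from -0.63 for Oasl1 to 1.63 for Mx1.

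Of the 5 transcription factors, Irf1 was called. Irf1, an early interferon gamma target and an activator of other interferon-induced genes (chromosome 11, 53770014 to 53778374), stood at 44.6, 25.1 and 26.7 CPM in HS replicates 1 to 3 and at 18.4, 13.8 and 13.3 CPM in NS replicates 1 to 3. All HS values lay above all NS values. It rose 2.12-fold (log2 fold change 1.09 ± 0.24, SE; edgeR adjusted p = 0.03344), from 15.2 ± 2.79 to 32.1 ± 10.8 CPM (SD, n = 3), and by 0.77 on the log2 scale without HS replicate 1 (adjusted p = 0.02452). Its call was lost with limma-voom (adjusted p = 0.05043) and without HS replicate 3 or any one NS library (adjusted p between 0.07013 and 0.1416).

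The other 4 factors were not called by edgeR or limma-voom, while DESeq2 called Irf8 and Stat2 as well as Irf1 (adjusted p = 0.04525 for Irf8 and 0.02726 for Stat2), and the same 3 passed in edgeR without HS replicate 2. Stat2 (chromosome 10, 128270559 to 128292849) stood at 118, 57.7 and 65.5 CPM in HS and at 51.4, 50.1 and 45.9 CPM in NS, with no overlap (log2 fold change 0.71 ± 0.26, SE; edgeR adjusted p = 0.1368). Irf9, its DNA-binding partner (chromosome 14, 55603571 to 55610030), had 72.5, 48.0 and 43.4 CPM in HS and 47.8, 34.6 and 37.6 CPM in NS, so that HS replicate 3 lay inside the NS range (0.45 ± 0.21, adjusted p = 0.2170). Irf7, the factor that amplifies type I interferon production and is itself strongly induced by it (chromosome 7, 141262706 to 141266481), had the widest ratio of HS replicate 1 to HS replicate 2 of the 5, 4.72-fold. It stood at 47.7 CPM in HS replicate 1, but at 10.1 and 16.7 CPM in HS replicates 2 and 3, against 21.4, 14.2 and 16.4 CPM in NS. HS replicate 2 thus lay below every NS library, and the log2 fold change of 0.52 ± 0.55 (SE; adjusted p = 0.5994) became -0.37 without HS replicate 1 (adjusted p = 0.4358). Irf8, a factor of myeloid cells that interferon gamma induces, stood at 23.7, 9.54 and 17.1 CPM in HS and at 7.87, 10.8 and 9.20 CPM in NS (adjusted p = 0.1197), with HS replicate 2 inside the NS range. The exons of Irf1, Irf7 and Irf9 each overlap those of another gene.

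**Figure D3:**
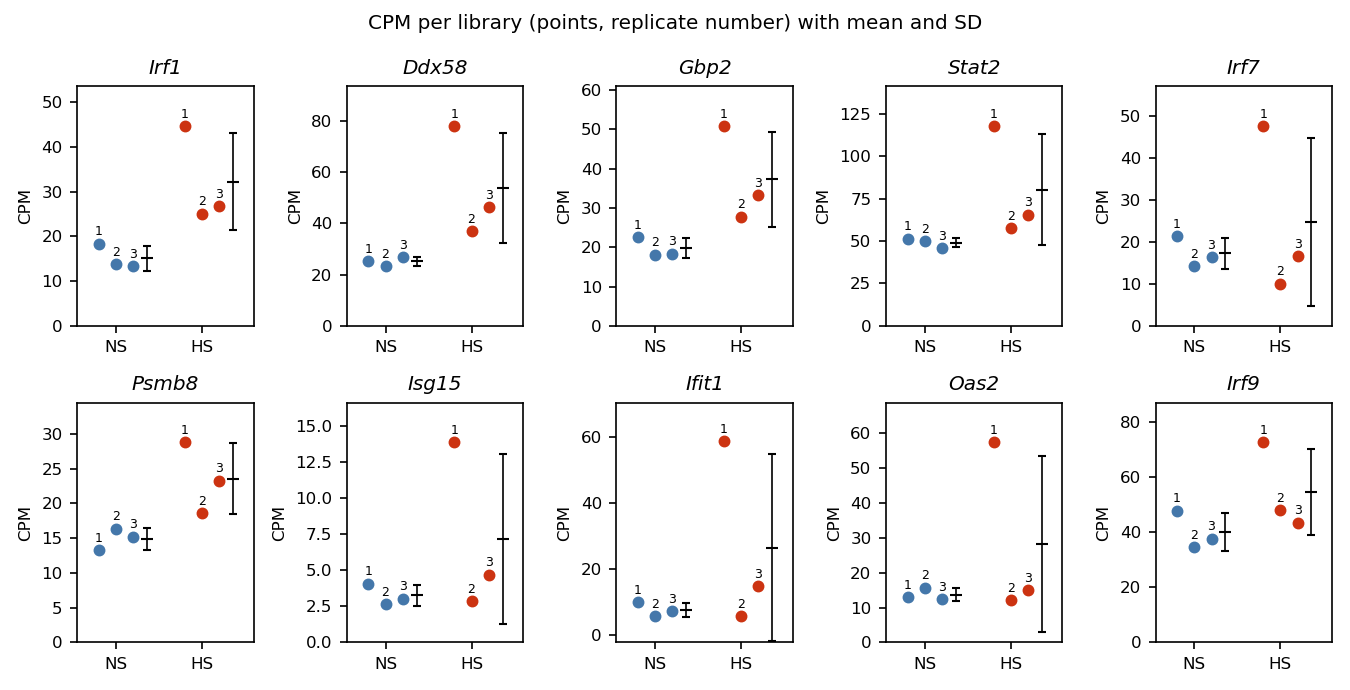
CPM of 10 of the genes in each library (points, numbered by replicate; NS blue, HS red), with the mean and SD of each group (n = 3) as a bar. Irf1, Ddx58, Gbp2, Stat2 and Psmb8 have all 3 HS points above the NS points; in Irf7, Isg15, Ifit1, Oas2 and Irf9 HS replicate 2 or 3, or both, lie in or below the NS range.

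Of the 5 sensors of nucleic acid, Ddx58 was called. Ddx58 (now Rigi), which encodes the cytosolic RNA sensor RIG-I (chromosome 4, 40203773 to 40239828), stood at 77.9, 37.0 and 46.2 CPM in HS and at 25.1, 23.4 and 26.9 CPM in NS. The groups did not overlap, and the gene rose 2.14-fold, from 25.1 ± 1.74 to 53.7 ± 21.4 CPM (SD, n = 3; log2 fold change 1.10 ± 0.26, SE; edgeR adjusted p = 0.04307). Without HS replicate 1 the log2 fold change was 0.73 (adjusted p = 0.01284). The call was lost when genes of low counts were kept (adjusted p = 0.05191), with limma-voom (adjusted p = 0.05927) and without HS replicate 3 or any one NS library (adjusted p between 0.1005 and 0.1539). The other 4 were not called by edgeR or limma-voom, with log2 fold changes from 0.65 to 1.37. DESeq2 called 3 of the 5, Ddx58, Eif2ak2 (adjusted p = 0.04524) and Ifih1 (adjusted p = 0.04829), and edgeR called 4 without HS replicate 2. Zbp1, a sensor of Z-form nucleic acid that can trigger necroptosis, showed the widest spread, at 30.7 CPM in HS replicate 1 and 5.08 and 7.47 CPM in HS replicates 2 and 3, against 5.24 to 5.96 CPM in NS, so that HS replicate 2 lay below all NS libraries. Eif2ak2, the double-stranded RNA kinase PKR, and Ifih1, the sensor MDA5, were 1.57-fold and 1.61-fold higher, and Dhx58, the related protein LGP2, 2.10-fold.

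The OAS family, whose enzymes make the signal that switches on RNase L, had the highest ratio of summed level to the NS mean in HS replicate 1 of the 7 role groups, but not by gene, where the median ratio was 4.24-fold against 5.73-fold for the IFIT and other effector genes. None of the 5 was called by edgeR or limma-voom, 2 had an edgeR unadjusted p below 0.05, and DESeq2 called 1. Without HS replicate 2, edgeR called 1 of the 5 (13.5% of all genes). Their sum was 5.53-fold the NS mean in HS replicate 1, 1.05-fold in HS replicate 2 and 1.37-fold in HS replicate 3. Oas2 (chromosome 5, 120730333 to 120749853) stood at 57.3 CPM in HS replicate 1, and at 12.2 and 14.9 CPM in HS replicates 2 and 3, against 13.03, 15.7 and 12.4 CPM in NS, so HS replicate 2 lay just below all NS libraries. Its log2 fold change of 1.04 ± 0.59 (SE; edgeR adjusted p = 0.3194) became -0.01 without HS replicate 1. Oasl2 (chromosome 5, 114896936 to 114912234) had 118, 20.01 and 27.1 CPM in HS and 20.5, 13.3 and 14.1 CPM in NS (1.79 ± 0.69, adjusted p = 0.1603). Here HS replicate 2 was inside the NS range. Oas1a was the 1 member of the family whose groups did not overlap, at 19.1, 6.42 and 7.10 CPM in HS and 5.07, 4.32 and 4.12 CPM in NS (1.27 ± 0.42, adjusted p = 0.09647). Oas3, at 13.5, 1.11 and 1.79 CPM in HS and 3.02, 2.07 and 1.599 CPM in NS, differed 12.1-fold between HS replicates 1 and 2, the widest ratio of any of the 42 genes. Oasl1, a translational repressor of Irf7, stood at 7.29, 0.980 and 2.27 CPM in HS and at 2.93, 2.21 and 2.44 CPM in NS. Without HS replicate 1, the log2 fold changes of Oas3 and Oasl1 were -0.61 and -0.63, neither called.

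None of the 10 IFIT and other effector genes was called by edgeR or limma-voom, while 6 had an edgeR unadjusted p below 0.05 and DESeq2 called 5. Without HS replicate 2, edgeR called 6 of the 10 (13.5% of all genes). Their median log2 fold change was the highest of the role groups, 1.54. Ifit1, which binds RNA with foreign caps (chromosome 19, 34640871 to 34650009), stood at 58.6 CPM in HS replicate 1, 5.84 CPM in HS replicate 2 and 14.9 CPM in HS replicate 3, against 9.97, 5.72 and 7.32 CPM in NS. HS replicate 2 was inside the NS range and HS replicates 1 and 2 differed 10.0-fold, and the 3.45-fold difference did not pass the test (log2 fold change 1.79 ± 0.80, SE; edgeR adjusted p = 0.2164). Ifi44 (chromosome 3, 151730922 to 151749960) had 13.6, 3.25 and 4.28 CPM in HS and 2.36, 1.63 and 1.04 CPM in NS, with no overlap (2.07 ± 0.59, adjusted p = 0.06985). Bst2, the tetherin that holds enveloped viruses at the cell surface, stood at 36.8, 10.8 and 20.2 CPM in HS and at 9.05, 7.30 and 6.84 CPM in NS, and likewise did not overlap (1.55 ± 0.42, adjusted p = 0.06358). Bst2 passed under 5 of the 14 alternatives, among them DESeq2, edgeR without its robust step (adjusted p = 0.0427) and the fits that left out HS replicate 1 or HS replicate 2. Mx1, an antiviral GTPase whose allele in C57BL/6 mice is known to be defective, had the lowest level per exon length of the 42. Its raw counts were 69, 15 and 23 in the HS libraries, against 1, 3 and 13 in NS, and it was not called by edgeR (adjusted p = 0.1092) but passed with DESeq2 (adjusted p = 0.04731) and without HS replicate 2 (adjusted p = 0.04944). Rsad2, the enzyme viperin, which makes a chain-terminating nucleotide, stood at 32.8, 5.12 and 11.8 CPM in HS and at 7.30, 5.19 and 4.72 CPM in NS (adjusted p = 0.1938). Ifit3, a partner of Ifit1, had 54.0, 7.49 and 11.8 CPM in HS and 10.6, 7.69 and 9.88 CPM in NS (adjusted p = 0.2825). In Rsad2 HS replicate 2 was inside the NS range and in Ifit3 it was below it. Xaf1, an interferon-induced promoter of apoptosis, had 37.4, 11.6 and 14.4 CPM in HS and 9.23, 7.25 and 7.76 CPM in NS, with no overlap (adjusted p = 0.09631). The remaining log2 fold changes were 0.72 for Cmpk2, a nucleotide kinase, 0.93 for Ifit2 and 1.65 for Rtp4. Of these, Rtp4 passed with DESeq2 (adjusted p = 0.003629).

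Of the 7 genes of ISG15 conjugation, ubiquitination and ADP-ribosylation, none was called by edgeR or limma-voom, 4 had an edgeR unadjusted p below 0.05, and DESeq2 called 3. Without HS replicate 2, edgeR called 6 of the 7 (13.5% of all genes). Isg15, an interferon-induced ubiquitin-like protein that is attached to other proteins (chromosome 4, 156199424 to 156200818), stood at 13.8, 2.85 and 4.69 CPM in HS and at 4.07, 2.64 and 3.04 CPM in NS, with HS replicate 2 inside the NS range (log2 fold change 1.13 ± 0.56, SE; edgeR adjusted p = 0.2441), and its log2 fold change was 0.22 once HS replicate 1 was left out. Isg15 passed without HS replicate 2 (adjusted p = 0.0292). Usp18, which removes Isg15 and damps signalling at Ifnar2, also had HS replicate 2 inside the NS range, at 16.2, 2.81 and 6.01 CPM in HS and 3.59, 4.23 and 2.76 CPM in NS. Parp9 and Dtx3l, partners in 1 complex encoded on opposite strands of chromosome 16, did not overlap between the groups. Parp9 stood at 69.9, 37.4 and 41.4 CPM in HS and at 30.8, 25.3 and 23.1 CPM in NS (adjusted p = 0.05773), and Dtx3l was 1.97-fold higher (adjusted p = 0.07889). Both passed with DESeq2, without HS replicate 1 (adjusted p = 0.03783 for Parp9 and 0.03272 for Dtx3l) and on leaving out HS replicate 2. Exons of the pair overlap, and no source used here says whether strand was used in counting. Parp14, an ADP-ribosyltransferase, stood at 98.0, 38.7 and 51.0 CPM in HS and at 32.5, 31.9 and 34.6 CPM in NS, without overlap (adjusted p = 0.1331). Trim30a, of the tripartite motif family, had 72.8 CPM in HS replicate 1 and 19.2 and 30.6 CPM in HS replicates 2 and 3, against 20.7 to 21.7 CPM in NS. HS replicate 2 was thus below all NS libraries for Trim30a. Herc6, the mouse ligase for Isg15, was 1.73-fold higher, with no call by DESeq2 or by edgeR with all libraries. It passed in edgeR without HS replicate 2 (adjusted p = 0.03348).

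The 7 interferon-inducible GTPases of the GBP and IRG families, which act on membranes of vacuoles that hold pathogens and respond chiefly to interferon gamma, were above the NS mean in all 3 HS libraries for each gene. Their summed level was 3.35-fold, 1.32-fold and 1.69-fold the NS mean in HS replicates 1 to 3. Gbp2 (chromosome 3, 142620602 to 142638008) was the 1 called by edgeR with all libraries, at 50.8, 27.8 and 33.3 CPM in HS and 22.7, 18.1 and 18.4 CPM in NS. Its groups did not overlap, and it rose 1.89-fold, from 19.7 ± 2.54 to 37.3 ± 12.1 CPM (SD, n = 3; log2 fold change 0.92 ± 0.22, SE; edgeR adjusted p = 0.04050), and by 0.63 on the log2 scale without HS replicate 1 (adjusted p = 0.03568). The call was lost with limma-voom (adjusted p = 0.06134) and without HS replicate 3 or any one NS library (adjusted p between 0.09556 and 0.1583). Gbp3, Gbp7, Irgm1 and Irgm2 did not overlap between the groups either and were not called by edgeR (adjusted p between 0.08064 and 0.1149). DESeq2 called all 7 GTPases, limma-voom called 0 (6 at an unadjusted p below 0.05), and edgeR called 4 without HS replicate 2. Gbp3 had the highest fold change of the 7, 2.98-fold, at 58.2, 16.9 and 26.9 CPM in HS and 11.9, 8.07 and 14.2 CPM in NS. Irgm1, a regulator of the other IRG proteins and of autophagy, stood at 72.3, 25.3 and 33.7 CPM in HS and at 21.1, 19.1 and 18.8 CPM in NS. Igtp and Iigp1 overlapped with NS through HS replicate 2. These families hold similar paralogs, as do the OAS and IFIT families, so reads could be shared between copies in counting.

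The 3 genes of peptide supply to MHC class I had the lowest median log2 fold change of the role groups, 0.54, and none was called by edgeR or limma-voom. Of these, 1 had an edgeR unadjusted p below 0.05, and DESeq2 called 1. Without HS replicate 2, edgeR called 2 of the 3, Psmb8 and Psmb9 (13.5% of all genes were then called higher). Psmb8, a catalytic subunit of the immunoproteasome (chromosome 17, 34197721 to 34201454), stood at 28.8, 18.6 and 23.3 CPM in HS and at 13.2, 16.4 and 15.2 CPM in NS, with no overlap (log2 fold change 0.66 ± 0.18, SE; edgeR adjusted p = 0.05801). Psmb9, another such subunit, was 1.45-fold higher (adjusted p = 0.2043). Tap1, a subunit of the peptide transporter into the endoplasmic reticulum (chromosome 17, 34187553 to 34197225), had 59.6, 53.5 and 44.5 CPM in HS and 49.0, 46.5 and 48.3 CPM in NS. It had the smallest difference of the 42 genes (0.13 ± 0.12, adjusted p = 0.5239), and HS replicate 3 lay below all NS libraries. In NS, Tap1 also had the highest level per exon length, 8.75 ± 0.241 CPM per kb (SD, n = 3), and Bst2 at 8.56 ± 1.29 and Stat2 at 8.29 ± 0.486 CPM per kb did not differ from it beyond their spread. Mx1 had the lowest, 0.0623 ± 0.0663 CPM per kb.

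Upstream of these genes, the receptors were detected and few ligands could be examined. Of 21 listed ligands, 2 were in the table, and both were below the filter. Ifng, the gene of interferon gamma, had 9 counts in HS replicate 1 and 0 in the other 5 libraries, where 0 allows up to 3 counts, or 0.147 CPM in the shallowest library; Ifnz had 1 count, in HS replicate 1. The difference in Ifng therefore rests on 1 library. The 19 other ligands were not analysed here. Of 11 receptor and JAK-STAT genes, 4 rose (36.4%, against 6.33% of all genes) and none fell. The type I receptor chain Ifnar2 stood at 32.0, 20.5 and 23.5 CPM in HS and at 13.1, 12.3 and 9.56 CPM in NS and rose 2.17-fold (edgeR adjusted p = 0.01758), and its partner Ifnar1 rose 1.61-fold (adjusted p = 0.04547). Il10rb, a chain shared by the receptors of type III interferon and interleukin 10, rose 1.67-fold (adjusted p = 0.03734). The interferon gamma receptor chains Ifngr1 and Ifngr2 were 1.52-fold and 1.27-fold higher without a call, and the kinases Jak1, Jak2 and Tyk2 were not called. Without HS replicate 2, 9 of the 11 were called higher and 1 lower. Without HS replicate 1, 3 were called higher, without HS replicate 3 or any one NS library 0 (with 8 of the 11 higher at an unadjusted p below 0.05 in each case), with DESeq2 7 and with limma-voom 2.

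Of 16 sensors and adaptors that lead to interferon production, 1 rose (6.25%, near the 6.33% of all tested genes), so the count is no result about this list. The gene was Tmem173 (now Sting1), the adaptor of cytosolic DNA sensing. It stood at 33.0, 16.7 and 22.7 CPM in HS and 11.7, 13.5 and 13.4 CPM in NS (1.88-fold, edgeR adjusted p = 0.04744). None of the list was called with limma-voom (4 at an unadjusted p below 0.05), without HS replicate 1 (2), without HS replicate 3 (2) or without NS replicates 1, 2 or 3 (4, 4 and 1). DESeq2 called 4, and 6 were called without HS replicate 2. Of 9 negative regulators none was called by edgeR or limma-voom and 1 was called higher by DESeq2, 1 had an edgeR unadjusted p below 0.05, and their median log2 fold change was -0.02. Ptpn6, a phosphatase that damps cytokine signals (0.62, adjusted p = 0.09721), and Pias4, an inhibitor of STAT factors (-0.27, adjusted p = 0.2275), had the smallest p.

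Interferon-induced genes other than the 42 were also mostly highest in HS replicate 1. Of 56 tested, 10 rose (17.9%, against 6.33% of all tested genes) and none fell, and their median log2 fold change was 0.98. In 51 the highest value was in HS replicate 1, which held for 26.8% of all tested genes. Among those called were Parp12, an ADP-ribosyltransferase (1.86-fold), Gbp4 (1.89-fold) and Samhd1, which degrades nucleotides needed by retroviruses (1.62-fold). Also called were Lgals9, a galectin (1.79-fold), Slfn2 of the Schlafen family (3.44-fold), and Cxcl9, a T cell chemokine that depends on interferon gamma. The remaining calls were Ifi27l2a, Mov10, Uba7 and Helz2. Cxcl9 stood at 20.4, 5.35 and 9.81 CPM in HS and at 2.97, 2.88 and 2.999 CPM in NS and rose 4.02-fold (edgeR adjusted p = 0.03556). Without HS replicate 1, 8 of the list were called higher, without HS replicate 2, 35, with DESeq2 27 and with limma-voom 1. No gene of it was called without HS replicate 3 or any one NS library, where 21 to 35 had an unadjusted p below 0.05. Of 15 genes of MHC class I presentation, 5 rose (33.3%, against 6.33% of all tested genes) and none fell. B2m, the light chain of MHC class I, stood at 900.1, 691 and 698 CPM in HS and at 479, 461 and 529 CPM in NS (1.56-fold, adjusted p = 0.01986), and the loading factor Tapbp rose 1.55-fold (adjusted p = 0.01681). The class I gene H2-Q4, the peptide-trimming Erap1 and the chaperone Pdia3 rose 1.56-fold, 1.41-fold and 1.32-fold. These 5 each stood above every NS library in all 3 HS libraries. The list had 5 calls without HS replicate 1 and with limma-voom, 7 with DESeq2 and 9 without HS replicate 2, while without HS replicate 3 or any one NS library no gene of the list was called (5 to 9 were higher at an unadjusted p below 0.05).

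Markers of several cell types also differed between the HS libraries, some in the order HS replicate 1, 3, 2 and others not. The summed level of the 42 genes was 1983, 758 and 948 CPM in HS replicates 1 to 3, against 599 to 696 CPM in NS, that is 3.10-fold, 1.19-fold and 1.48-fold the NS mean. Over the same libraries 7 markers of all leukocytes summed to 725, 288 and 501 CPM, against 162 to 181 CPM in NS (4.15-fold, 1.65-fold and 2.87-fold the NS mean). Of the 7, 4 were called higher (57.1%, against 6.33% of all tested genes), among them Ptprc, which encodes CD45. Leaving out HS replicate 1 gave 4 calls among the 7, and leaving out HS replicate 2 gave 6. There were 0 on leaving out HS replicate 3 or any one NS library, where 5 or 6 had an unadjusted p below 0.05. The 14 macrophage and monocyte markers summed to 1469, 541 and 893 CPM, against 559 to 654 CPM in NS, so this sum was below all NS libraries in HS replicate 2. The markers were not alike. Of 13 tested, 5 (Cx3cr1, Trem2, Cd68, Itgam and Ly6c2) had every HS value above every NS value, and the others overlapped. Of all tested genes, 17.2% had every HS value above every NS value. Cx3cr1 and Trem2 were the 2 called higher (15.4%, against 6.33% of all tested genes). Of the 13, 10 were called higher without HS replicate 2 (13.5% of all genes) and 8 with DESeq2 (11.1%). There were 2 such calls without HS replicate 3 (0.832%) and 1 without NS replicate 1 (0.446%). None was called without NS replicate 2 (9 at an unadjusted p below 0.05) or NS replicate 3 (6). Without HS replicate 1, 2 were called higher and 1 lower. The 14 T and NK cell markers summed to 41.8, 26.6 and 27.0 CPM against 16.8 to 20.5 CPM. Of 12 tested, 1 was called (8.33%, near the share of all tested genes), 2 on leaving out HS replicate 2 and 0 on leaving out any other library. The called gene was Cd4 (3.10-fold, edgeR adjusted p = 0.03661). Tbx21, a factor of cells that make interferon gamma, had 21, 1 and 2 counts in HS and 0 in each NS library. It was below the filter and was not tested. Ncr1, also below the filter, had 25, 0 and 24 counts in HS and 5, 4 and 1 in NS. Neutrophil markers summed to 198, 113 and 388 CPM against 16.6 to 23.8 CPM. This sum was highest in HS replicate 3, where it was mostly S100a8 (163 CPM) and S100a9 (177 CPM). Of the 5 tested, 2 (Cxcr2 and Retnlg) were highest in HS replicate 1. With all libraries 4 of the 5 were called higher (80%, against 6.33% of all tested genes). Without any one NS library, 8 markers passed the filter. Of these 8, 1 was called without NS replicate 1 (0.446% of all genes), and 0 without NS replicate 2 (0.135%) or 3 (0.251%). At an unadjusted p below 0.05, 6, 7 and 7 of the 8 were then higher. Markers of plasmacytoid dendritic cells, the main makers of type I interferon, summed to 273 to 308 CPM against 239 to 247 CPM, a sum made up mostly of Tcf4, which other cells express; the defining marker Siglech stood at 2.52, 0.980 and 1.61 CPM in HS and at 1.44, 0.769 and 2.16 CPM in NS. B cell markers reached at most 2.59 CPM in sum.

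Markers of tissue cells differed as well. The 6 fibroblast markers stood at 3.28-fold, 1.75-fold and 2.74-fold the NS mean in HS replicates 1 to 3 and the 6 endothelial markers at 2.87-fold, 1.72-fold and 2.74-fold. Of these, 5 and 6 were called higher (83.3% and 100%, against 6.33% of all tested genes). Leaving out HS replicate 3 gave 1 and 2 calls, and leaving out any one NS library 0 in both lists, where all 6 of each had an unadjusted p below 0.05. The 8 keratinocyte markers stood at 0.585-fold, 0.928-fold and 0.652-fold, with 1 called lower (2.51% of all tested genes were). There were 6 on leaving out HS replicate 2, 3 with DESeq2 and 0 on leaving out any other library. The 7 conventional dendritic cell markers stood at 1.87-fold, 1.59-fold and 2.06-fold, with 1 called higher (14.3%). The 6 skeletal muscle markers summed to 8547 CPM in HS replicate 1 and to 4313 and 4311 CPM in HS replicates 2 and 3, against 4063 to 4901 CPM in NS. Of the 6, 1 was called higher (16.7%), the fast muscle myosin Myh4. The part of these markers in the levels of the interferon-stimulated genes was not tested.

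**Figure D4:**
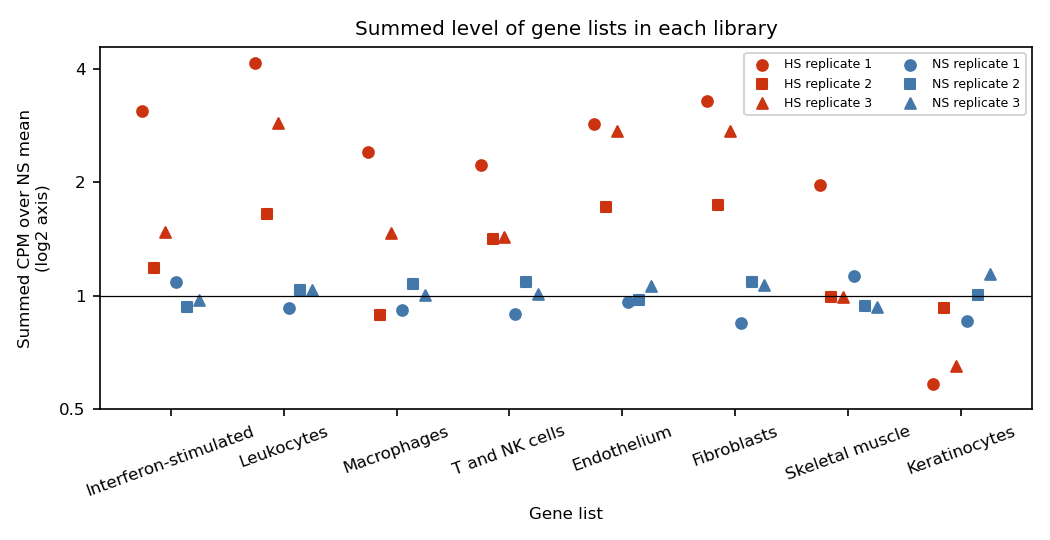
Summed CPM of the 42 interferon-stimulated genes and of 7 marker lists in each library, divided by the mean of the 3 NS libraries (log2 axis; HS red, NS blue; marker shape gives the replicate). HS replicate 1 stands at 3.10-fold for the interferon-stimulated genes and 4.15-fold for leukocyte markers, and HS replicate 2 at 1.19-fold and 1.65-fold.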

How the data were processed

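RNA sequencing measured 6 skin scar libraries, 3 HS and 3 NS, grouped by sample title. Values were raw counts for each gene from a table deposited by the authors, as its file headers state, and the 6 columns of normalized values in it were not used. Build mm10, edgeR, HTSeq 0.9.1, HISAT2 2.0.4 and cutadapt 1.9.3 are named in the submitters' processing notes, without settings. Libraries were made after removal of ribosomal RNA and read from both ends, per the labels' protocols.

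Summed counts per library ran from 20375395 to 27859889, and 1 count was worth at most 0.04908 CPM. Floors cover counting error only. The chi-square per gene between libraries of a group, over genes with at least 50 counts in the pair, was 14.2 or more, so none was a copy of another. Genes were kept by filterByExpr (minimum count 10), which left 14513 of 17572. The test on counts was that of edgeR 4.0.16 (R 4.3.3; TMM factors 0.955 to 1.033, robust quasi-likelihood fit, group as the only term), with Benjamini-Hochberg adjustment over all tested genes at 0.05. Standard errors were derived from the fitted fold change and its F statistic. The procedure was tested on simulated data. Alternatives included DESeq2 1.42.0 and limma-voom (limma 3.58.1).

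The 42 genes and the other lists were chosen with earlier results of these data known. Library values were given for called genes, for the 3 highest and 3 lowest fold changes with a mean of at least 1 CPM, and for 10 genes named by role; other genes given per library were chosen after their values were seen. Symbols are those of the table. Coordinates are from GENCODE M21 (mm10), 1-based; 17398 gene identifiers matched. Exons of 19 of the 42 genes overlapped exons of another annotated gene, Irf1 and Gbp2 among them, so their counts can include its reads. Promoters are from RefSeq (GRCm38.p6). The values of 1 called gene among the receptor and JAK-STAT genes are not reported here.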

Additional observations from a re-analysis of the deposited data

How the results depend on the processing

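The number of interferon-stimulated genes called higher was 3 with DESeq2-type size factors, with library totals only and with at least 1 CPM in 3 libraries, and 2 with no filter on low counts. It was 11 with the replicate number as a block, 23 with DESeq2, 0 with limma-voom and 5 without the robust step. Leaving out 1 library gave between 0 and 26 calls, with 6 without HS replicate 1. The labels do not say whether same-numbered HS and NS libraries are paired. Their deviations from the group means correlated at 0.005, 0.005 and 0.033. With so few libraries these values cannot decide whether pairing exists, and the block is given only as a check. None was called lower under any of the 14 alternatives with edgeR, DESeq2 or limma-voom. Over all genes, DESeq2 called 1614 higher and 821 lower, library totals only called 585 lower, and leaving out 1 library gave 20 to 2000 higher and 5 to 1257 lower. The cause was not tested. The median log2 fold change of the 42 genes ran from 0.44 to 1.29, the extremes being the fits that left out HS replicate 1 and HS replicate 2. Without HS replicate 1, 38 of the 42 fold changes stayed above 0, and 4 turned, none called. Over the alternatives that leave out 1 library, Irf7 ran from -0.37 to 0.89, Oas2 from -0.01 to 1.40, Oas3 from -0.61 to 1.78 and Oasl1 from -0.63 to 0.92. All 42 kept their sign in the other 13 alternatives, apart from Mx1, which had no value with at least 1 CPM in 3 libraries. Mx1, Oasl1 and Ifng are limited by depth.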
